A study of Mus musculus with 16 samples.

Results

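The genes described here are 8 receptors of the TNF receptor superfamily that T cells carry and 2 cytoplasmic adaptors that bind such receptors. They were taken by symbol from the deposited tables of gene identifiers: Tnfrsf1a, Tnfrsf1b, Tnfrsf4, Tnfrsf9, Tnfrsf18, Tnfrsf25, Cd27, Fas, Traf1 and Traf2. All 10 were found among 47643 identifiers, and all 10 passed the filter on low values in both cell subsets. Receptors of this family are trimeric proteins at the cell surface that are engaged by ligands of the TNF superfamily on neighbouring cells. Most recruit TRAF adaptors to their cytoplasmic tails and switch on NF-kB, while members with a death domain can also start caspase-driven cell death. In regulatory T cells several of them serve as costimulators that support survival and expansion.

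The series asked what the loss of DNA binding by thyroid hormone receptor alpha does to gene expression in splenic CD4+ T cells. TRaGS mice carry a receptor (gene Thra) that cannot bind DNA, and TRaWT mice are their wild-type littermates. Each of 8 mice gave 1 library of CD25+ CD4+ regulatory T cells (Treg) and 1 of CD25- CD4+ T cells (called CD4 here), so the groups are Treg from 4 TRaGS mice, Treg from 4 TRaWT mice, CD4 from 4 TRaGS mice and CD4 from 4 TRaWT mice. Cells were enriched magnetically and then sorted by flow cytometry on CD25, the product of Il2ra. The labels name no treatment and give the genotype of the animal, not of the T cells alone; age is not given in the sources used here. A count of 3' tags from Thra does not check this genotype, since the change is in the DNA-binding part of the protein.

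The libraries read the 3' ends of polyadenylated transcripts, so a count depends little on transcript length, and levels are not compared between genes. Values are normalised counts, that is reads divided by 1 factor per library. Recovered depth was 2912038 to 4154027 reads per Treg library and 2679119 to 5095278 per CD4 library. Treg libraries were more alike than CD4 libraries: Spearman's rho of each library with its 7 companions had medians of 0.880 to 0.911 in Treg and of 0.762 to 0.835 in CD4. Where the subsets are set side by side, levels are given as RPM, reads scaled to an equal library total outside Gm42418. Foxp3, which encodes the defining transcription factor of Treg, was at 376 to 570.4 RPM in the Treg libraries of TRaGS mice, at 442 to 534 in the Treg libraries of TRaWT mice, at 15.2 to 74.9 in the CD4 libraries of TRaGS mice and at 21.3 to 55.6 in the CD4 libraries of TRaWT mice. The T cell receptor chain gene Cd3e was present in all 16 libraries, at 323 to 629 RPM. Per member and library, 4 to 1703 reads were counted, lowest for Fas and Traf2 and highest for Cd27.

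In Treg, 4 of the 8 receptors were at higher levels in TRaGS than in TRaWT mice without any overlap between the genotypes: Tnfrsf1b, Tnfrsf4, Tnfrsf9 and Tnfrsf18. Only Tnfrsf1b passed the test across all genes. The other receptors and both adaptors overlapped between the genotypes. Over all genes tested in Treg, 0.959% passed the test and 0.733% passed it with higher values in TRaGS; of the 10 genes described here, 1 did. An unadjusted p under 0.05 was reached by 9.12% of all genes and by these 4 of the 10. Groups that did not overlap, with TRaGS higher, made up 2.84% of all genes tested, against 4 of these 10. With TRaGS lower they made up 2.23%, against 0 of these 10. The members were listed with earlier results of these data known, so these counts are a description.

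Tnfrsf1b encodes TNFR2, a receptor for TNF without a death domain that is abundant on Treg. Its normalised counts were 578, 605, 469.6 and 545 in TRaGS Treg, against 277, 347, 324 and 248 in TRaWT Treg. The lowest TRaGS library thus lay well above the highest TRaWT library. Means were 549 ± 58.6 in TRaGS and 299 ± 45.0 in TRaWT (SD, n = 4 each), a log2 fold change of 0.88 ± 0.18 (SE) on log2(normalised count + 1), with an adjusted p of 0.00571 by limma with Benjamini-Hochberg adjustment. By p it ranked at place 32 among 11051 genes. Without a variance trend limma called no gene in Treg, Tnfrsf1b included (adjusted p = 0.292 there).

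Tnfrsf18 encodes GITR, a costimulatory receptor that Treg carry constitutively. It was counted at 731, 850.2, 712 and 766 in TRaGS Treg, against 579, 528, 500.3 and 464 in TRaWT Treg. Each TRaGS library was above each TRaWT library, and the gap between the genotypes was wider than the spread within TRaWT. Its log2 fold change was 0.56 ± 0.16 (SE), and at an adjusted p of 0.0774 by limma it did not pass. DESeq2 on the recovered reads and limma after quantile normalisation did call it.

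Tnfrsf4 encodes OX40, a costimulator that is induced in conventional T cells and is constantly present on mouse Treg. Counts were 752, 716, 1098 and 829.8 in TRaGS Treg, against 549.8, 524, 598 and 673 in TRaWT Treg. TRaGS replicate 3 was the highest of the 8, and the gap between the lowest TRaGS library and the highest TRaWT library was small. The log2 fold change was 0.52 ± 0.16 (SE; limma adjusted p = 0.156). Tnfrsf9, which encodes the activation-induced costimulator CD137, had counts of 463, 646, 531 and 447 in TRaGS Treg, against 329.6, 341, 425 and 362 in TRaWT Treg. Here too the genotypes did not overlap, by a narrow margin between TRaGS replicate 4 and TRaWT replicate 3. Its log2 fold change was 0.51 ± 0.18 (SE; limma adjusted p = 0.273).

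**Figure D1:**
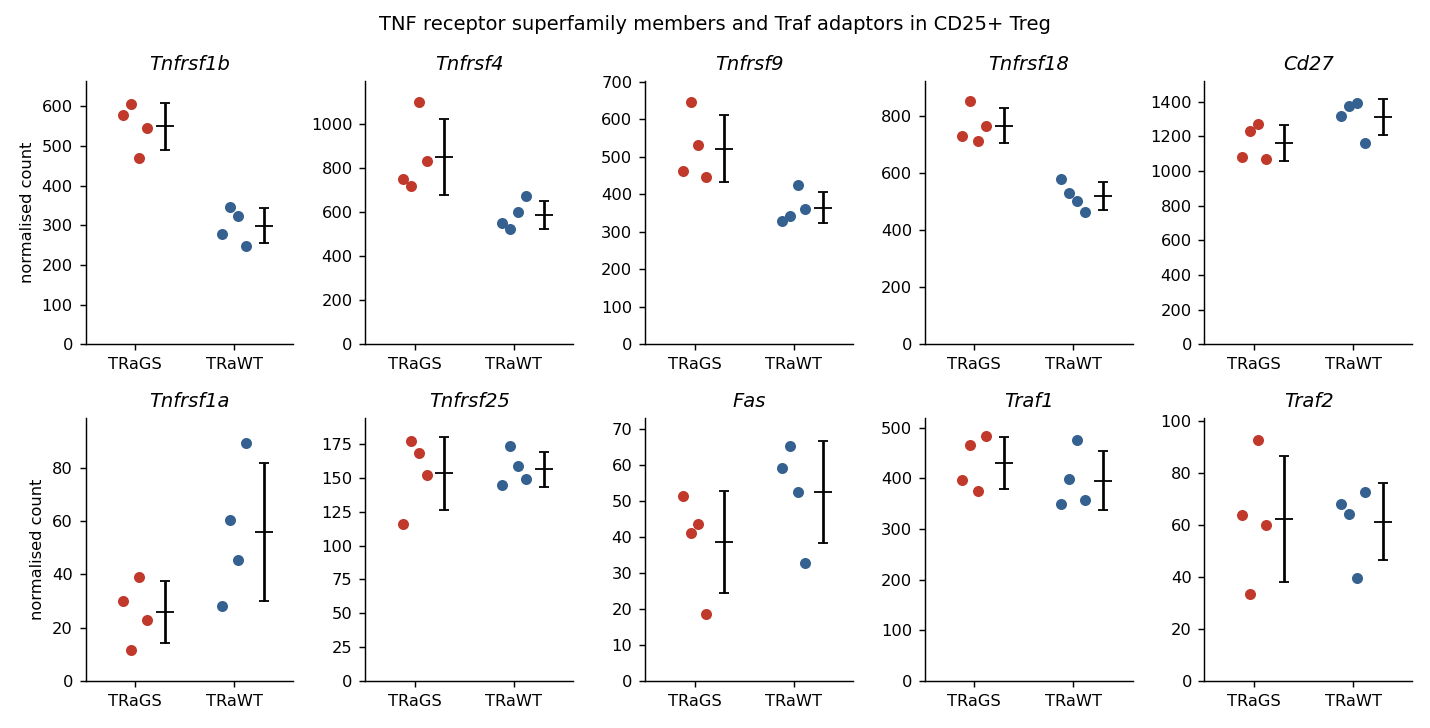
Normalised counts of the 10 genes in Treg, for 4 TRaGS and 4 TRaWT mice (points: animals, each panel starting at 0; horizontal mark and bar: mean and SD). Tnfrsf1b, Tnfrsf4, Tnfrsf9 and Tnfrsf18 show 4 TRaGS points above all 4 TRaWT points, and the other 6 panels show overlap.

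These 4 genes lie on chromosome 4 (GRCm38), as does Tnfrsf25. Tnfrsf1b spans 145213463 to 145246870 on the minus strand. Tnfrsf9 spans 150914562 to 150946102, Tnfrsf4 156013843 to 156016612 and Tnfrsf18 156026164 to 156028895, all on the plus strand. Tnfrsf4 and Tnfrsf18 are 9551 bases apart, while Tnfrsf1b lies 5667691 bases from Tnfrsf9. Because they were high together in TRaGS Treg, a start-site window of each is shown, 250 bases before to 50 bases after a RefSeq start (GRCm38.p6, 5′ to 3′ on the gene's strand). Capitals mark every match, on either strand, to GGGNNNNNCC, a short form of the NF-kB site; adjoining matches run together.

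Tnfrsf1b, chr4:145246821-145247120, minus strand: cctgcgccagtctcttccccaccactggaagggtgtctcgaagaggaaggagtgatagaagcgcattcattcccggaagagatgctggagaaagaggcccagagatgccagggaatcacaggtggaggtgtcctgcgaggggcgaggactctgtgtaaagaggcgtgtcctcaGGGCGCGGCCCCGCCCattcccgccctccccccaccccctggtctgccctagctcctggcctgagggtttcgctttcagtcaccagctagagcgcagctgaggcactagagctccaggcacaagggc
Tnfrsf4, chr4:156013445-156013744, plus strand: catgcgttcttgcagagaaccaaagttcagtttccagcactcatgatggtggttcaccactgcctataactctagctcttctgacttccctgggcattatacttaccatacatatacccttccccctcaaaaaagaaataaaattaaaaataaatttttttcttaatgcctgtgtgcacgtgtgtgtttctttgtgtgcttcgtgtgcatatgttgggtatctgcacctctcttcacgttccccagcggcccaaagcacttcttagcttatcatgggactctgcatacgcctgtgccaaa
Tnfrsf9, chr4:150927749-150928048, plus strand: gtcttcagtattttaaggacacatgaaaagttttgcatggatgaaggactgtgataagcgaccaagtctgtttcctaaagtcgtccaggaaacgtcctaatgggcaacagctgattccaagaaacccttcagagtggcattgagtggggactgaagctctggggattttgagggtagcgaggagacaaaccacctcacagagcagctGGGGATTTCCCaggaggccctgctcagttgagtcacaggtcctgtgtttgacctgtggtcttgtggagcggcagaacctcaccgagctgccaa
Tnfrsf18, chr4:156026072-156026371, plus strand: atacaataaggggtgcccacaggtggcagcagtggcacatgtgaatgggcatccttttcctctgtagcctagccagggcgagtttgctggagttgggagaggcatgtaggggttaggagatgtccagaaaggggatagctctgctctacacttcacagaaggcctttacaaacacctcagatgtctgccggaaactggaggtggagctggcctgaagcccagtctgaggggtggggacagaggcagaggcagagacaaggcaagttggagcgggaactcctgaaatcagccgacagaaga

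The windows shown for Tnfrsf1b and Tnfrsf9 hold the motif GGGNNNNNCC, a loose pattern, and those of Tnfrsf4 and Tnfrsf18 do not. The marked run in Tnfrsf1b is of G and C alone, while that in Tnfrsf9 has A and T at its centre. Tnfrsf9 has a further RefSeq start, whose window has no match. Across the 10 genes, 8 of 12 windows held the motif, beside 50.8% of 32851 windows of the same length across the genome. The element AGGTCA, the core letters that thyroid hormone receptors and other nuclear receptors recognise, was in 2 of the 12 windows on either strand, 1 of Tnfrsf9 (the window shown) and 1 of Tnfrsf25, beside 16.3% of all windows. A match describes the letters of the window and is no evidence of binding.

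The remaining receptors did not separate by genotype in Treg. Tnfrsf1a encodes TNFR1, the widely expressed TNF receptor with a death domain. It had few reads: 29.9, 11.6, 39.0 and 22.8 normalised counts in TRaGS Treg, against 27.9, 60.4, 45.5 and 89.2 in TRaWT Treg. The TRaGS libraries lay mostly below, but TRaWT replicate 1 fell among them. Its log2 fold change of -1.08 ± 0.54 (SE) had the largest size and the largest error of the 10 in Treg (limma adjusted p = 0.550), so TNFR1 and TNFR2 transcripts had fold changes of opposite sign, of which only that of Tnfrsf1b passed the test.

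Cd27, whose product binds CD70 and supports T cell survival, was counted at 1084, 1231, 1270.4 and 1067 in TRaGS Treg, against 1316, 1375, 1391 and 1161 in TRaWT Treg. The means of 1163 ± 103 and 1311 ± 105 (SD, n = 4 each) differed by more than either SD, and 2 TRaGS libraries lay below all TRaWT libraries, but the gene did not pass, with a log2 fold change of -0.17 ± 0.14 (SE; limma adjusted p = 0.782). Tnfrsf25 encodes the death-domain receptor DR3, through which TL1A expands Treg in mice. It averaged 154 ± 26.9 in TRaGS Treg and 157 ± 13.0 in TRaWT Treg (SD, n = 4 each). Fas, the death receptor that limits activated lymphocytes, ranged over 18.5 to 51.5 in TRaGS Treg and over 32.9 to 65.4 in TRaWT Treg, with 1 TRaGS library below all TRaWT libraries.

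The adaptors did not differ beyond their spread either. Traf2 binds most TRAF-recruiting receptors and, with it, Traf1 modulates their signal; Traf1 is itself an NF-kB target. Traf1 averaged 430.1 ± 51.7 in TRaGS Treg and 395 ± 58.2 in TRaWT Treg (SD, n = 4 each), a log2 fold change of 0.13 ± 0.18 (SE; limma adjusted p = 0.908). Traf2 averaged 62.4 ± 24.3 in TRaGS Treg and 61.3 ± 14.8 in TRaWT Treg, with fold changes that changed sign between settings. The median log2 fold change of the 10 genes in Treg was 0.05, beside 0.0057 over all 11051 genes tested.

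Other Treg genes differed between the same libraries. All 6 markers of effector Treg examined were called higher in TRaGS Treg: Klrg1, Icos, Prdm1, Il1rl1, Itgae and Gata3. Their summed normalised counts were 4086 to 5211 in TRaGS Treg, against 1858 to 2513 in TRaWT Treg. Leaving out each of the 8 libraries in turn ended the call of Itgae 5 times, of Gata3 without TRaGS replicate 3 or TRaWT replicate 2 and of Prdm1 without TRaGS replicate 4, and that of Klrg1, Icos and Il1rl1 never. The list was drawn up with earlier results of these data known, so its direction is no independent evidence. Of 7 general Treg markers, Nrp1 and Ikzf2 were called higher (Ikzf2 in 3 of 8 fits that each left out 1 library), with sums of 9307 to 11260 for the list in TRaGS Treg and 7752 to 8957 in TRaWT Treg. Ikzf2 alone had 4577 to 6096 of these counts in TRaGS Treg and 3440 to 4390 in TRaWT Treg. Il2rb, the IL-2 receptor beta chain, was higher without overlap, at 787 to 993 in TRaGS Treg and 527 to 718 in TRaWT Treg (limma adjusted p = 0.167). Another 3 of the 7 had negative log2 fold changes, and Lrrc32, which encodes GARP, the surface anchor of latent TGF-beta, had the largest change in size of the list. It was at 62.0 to 224 in TRaGS Treg and 194 to 416 in TRaWT Treg, a log2 fold change of -1.09 ± 0.30 (SE; limma adjusted p = 0.0747). Foxp3 itself was at 893 to 1330 in TRaGS Treg and at 1069 to 1214 in TRaWT Treg. Il2ra, whose product the cells were sorted on, was at 1009 to 1370 in TRaGS Treg and 1351 to 1699 in TRaWT Treg. Of its TRaGS libraries, 3 lay below all TRaWT libraries, with a log2 fold change of -0.40 ± 0.14 (SE; limma adjusted p = 0.271). These are bulk samples, in which a change in the share of cells of a type and a change of RNA per cell cannot be told apart, and the part of effector Treg in the higher receptor levels was not tested.

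Lists of markers of other cells and of naive T cells were also examined in Treg. Of 7 B cell markers 6 had enough counts to be tested and none was called, with sums of 82.6 to 268 in TRaGS Treg and 49.0 to 196 in TRaWT Treg. None of 5 plasma cell markers (3 tested) was called, with sums of 54.4 to 134 in TRaGS Treg and 36.2 to 105 in TRaWT Treg; Xbp1, which T cells also express, was at 44.6 to 88.2 in TRaGS Treg and 34.2 to 89.6 in TRaWT Treg. Mzb1 was at 0.723 to 25.7 in TRaGS Treg and at 0 in all TRaWT Treg libraries, with an unadjusted p of 0.0357 and an adjusted p of 0.497 by limma, and Jchain was at 2.17 to 53.1 in TRaGS Treg and 0 to 15.6 in TRaWT Treg. Sdc1 was at 0 in all TRaWT Treg libraries, and Tnfrsf17 at 0 in both genotypes. None of 11 myeloid markers (4 tested) was called, with sums of 112 to 194 in TRaGS Treg and 122 to 164 in TRaWT Treg; Adgre1 was at 0 in both, and Cd14 and S100a8 were at 0 in TRaWT Treg. In these B cell, plasma cell and myeloid lists the genotypes overlapped in their sums. Both CD8 T cell markers summed to 298 to 344 in TRaGS Treg and 274 to 355 in TRaWT Treg, and 5 NK cell markers to 31.2 to 140 in TRaGS Treg and 64.1 to 112 in TRaWT Treg, with Klra8 at 0 throughout. Of 5 naive T cell markers none was called in Treg. Their sums were 4503 to 5128 in TRaGS Treg and 5240 to 5466 in TRaWT Treg, ranges that do not overlap. Of the 5, 4 had negative log2 fold changes and 1, Il7r, a positive one. Ccr7, with the largest change in size, was at 209 to 279 in TRaGS Treg and 317 to 397 in TRaWT Treg. Il7r was at 1830 to 2192 in TRaGS Treg and 1332 to 2066 in TRaWT Treg. The part of these cells in the receptor values was not tested.

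In CD4, none of the 10 genes passed the test, none reached an unadjusted p under 0.05 by limma, edgeR or DESeq2, and none separated the genotypes. Over all genes tested in CD4, 0.0575% passed by limma and 5.17% had an unadjusted p under 0.05, so a count of 0 of 10 is near that background. Groups that did not overlap, in either direction, made up 3.16% of all genes tested, against 0 of these 10. Log2 fold changes ran from -0.39 for Fas to 0.76 for Tnfrsf9, with a median of 0.21 beside -0.013 over all 10426 genes tested, and the lowest adjusted p was 0.947. In CD4 limma gave every gene the variance of the trend at its level, so these errors and p-values are not built on how far a gene itself varied from mouse to mouse.

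Counts of Tnfrsf1b were 90.9, 153, 109.7 and 95.1 in TRaGS CD4, against 184, 68.5, 64.2 and 53.7 in TRaWT CD4. TRaWT replicate 1 was the highest of the 8 and stood apart from the other TRaWT libraries, which all lay below the TRaGS libraries. The log2 fold change with all libraries was 0.43 ± 0.58 (SE), and without that library it was 0.82, also not called. Tnfrsf4 had 91.9, 24.0, 176 and 58.4 in TRaGS CD4, against 88.0, 39.3, 81.7 and 42.7 in TRaWT CD4. Its TRaGS libraries held both the highest value, in replicate 3, and the lowest, in replicate 2. By median rho (0.762), CD4 of TRaGS replicate 2 was the CD4 library least like its companions.

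Tnfrsf9 had 99.7, 68.6, 48.2 and 37.8 in TRaGS CD4, against 34.7, 14.2, 71.9 and 40.2 in TRaWT CD4, with overlap between the genotypes. Tnfrsf18 had 54.7, 255, 180.4 and 230.3 in TRaGS CD4, against 264, 38.4, 194 and 176 in TRaWT CD4; each genotype had a single library far below its other 3. Cd27 averaged 845 ± 199 in TRaGS CD4 and 862 ± 185 in TRaWT CD4 (SD, n = 4 each). Tnfrsf1a ranged over 66.6 to 272 in TRaGS CD4 and 38.1 to 186 in TRaWT CD4, and Tnfrsf25 over 84.8 to 158 in TRaGS CD4 and 40.4 to 121 in TRaWT CD4. Every one of these ranges overlaps with that of the other genotype. For Fas the range was 2.83 to 103 in TRaGS CD4 and 14.5 to 53.5 in TRaWT CD4. Traf1 ranged over 175 to 247 in TRaGS CD4 and 108 to 302 in TRaWT CD4, and Traf2 over 4.89 to 84.8 in TRaGS CD4 and 30.1 to 86.4 in TRaWT CD4.

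**Figure D2:**
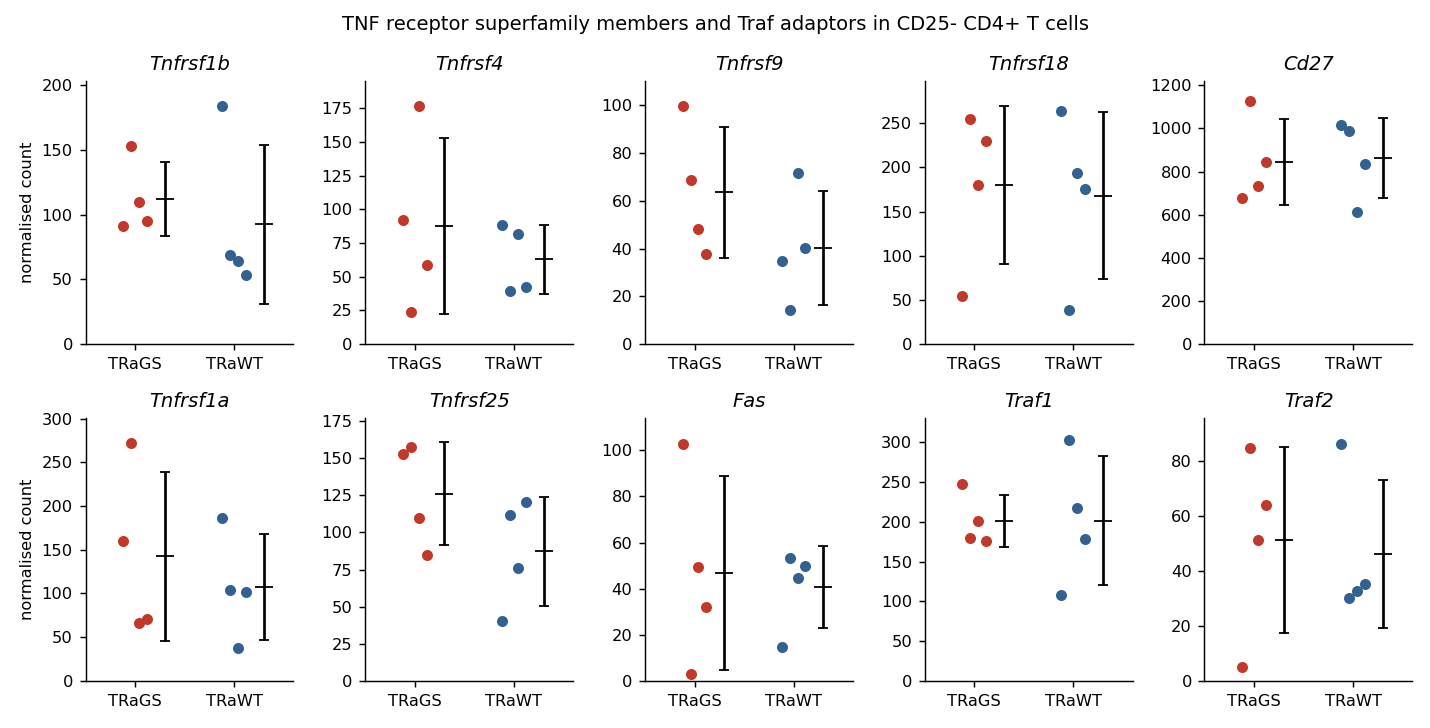
Normalised counts of the 10 genes in CD4, for 4 TRaGS and 4 TRaWT mice (points: animals, each panel starting at 0; horizontal mark and bar: mean and SD). The genotypes overlap in all 10 panels, and single libraries set the range of several genes, such as TRaWT replicate 1 for Tnfrsf1b at 184.

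A further test asked whether the genotype difference itself differed between Treg and CD4, from the gap between both libraries of a mouse on the log2 scale. None of the 10 genes was called by limma, edgeR or DESeq2, and none had an unadjusted p under 0.05 with any of them. Over all 9914 genes tested, limma called 0% and 5.96% (591 genes) had an unadjusted p under 0.05, while edgeR called 15 and DESeq2 37. The differences of the log2 fold changes, Treg minus CD4, ran from -1.45 ± 0.93 for Tnfrsf1a to 0.45 ± 0.67 for Tnfrsf1b (SE), with limma adjusted p of 0.859 to 0.995 over the 10 genes. The higher Tnfrsf1b in TRaGS Treg is therefore not shown to be particular to Treg. These p-values do not show that the subsets responded alike either. On simulated data with 200 changed genes, this limma test recovered 0% of 4-fold and 0% of 2-fold changes. With edgeR 58% and 5% were recovered. The simulated libraries of a mouse shared no animal effect, unlike the pairs this test is built on. The changed genes were drawn from genes with higher Treg levels than Tnfrsf1a, Fas and Traf2. Recovery by DESeq2 is not reported here. Under that setting an absence of calls by limma says little, and by edgeR little about changes of 2-fold or less. Recovery in the real pairs of libraries was not tested.

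**Figure D3:**
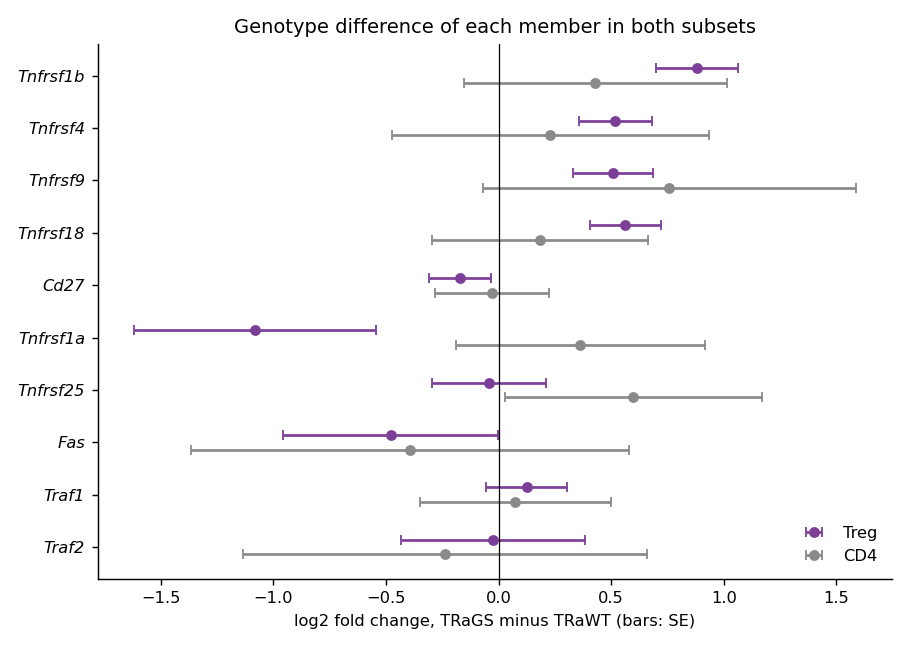
Log2 fold change of each gene, TRaGS minus TRaWT, with its SE, in Treg and in CD4. In Treg the values of Tnfrsf1b, Tnfrsf4, Tnfrsf9 and Tnfrsf18 lie between 0.51 and 0.88 with short bars, while the CD4 bars are wider.

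Levels in Treg were set beside levels in CD4 as RPM outside Gm42418, a gene that overlaps ribosomal RNA sequence and took 20.8% to 33.0% of reads in Treg and 21.1% to 41.1% in CD4 libraries. The tables were normalised separately, so these levels are given as a description, with no test. Of the 10 genes, 6 were higher in Treg in all 8 animals: Tnfrsf1b, Tnfrsf4, Tnfrsf9, Tnfrsf18, Cd27 and Traf1. Over all genes in both tables, 4.71% were. For all of these but Cd27, every Treg library lay above every CD4 library, which was so for 1.28% of all genes. The median log2 difference over all genes, Treg minus CD4, was between 0.00057 and 0.43 per animal.

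Tnfrsf4 averaged 366 ± 82.1 RPM in TRaGS Treg, 249 ± 25.98 in TRaWT Treg, 40.2 ± 31.8 in TRaGS CD4 and 29.8 ± 11.98 in TRaWT CD4 (SD, n = 4 each). Each Treg group lay above the next without overlap, and the CD4 groups overlapped. Over all libraries its mean was 8.77 times as high in Treg as in CD4. Tnfrsf9 followed the same order, with 224 ± 37.4 in TRaGS Treg, 155 ± 18.2 in TRaWT Treg, 27.3 ± 11.3 in TRaGS CD4 and 19.3 ± 11.8 in TRaWT CD4, and a ratio of 8.13.

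Tnfrsf1b averaged 236 ± 22.3 RPM in TRaGS Treg, 127 ± 21.9 in TRaWT Treg, 48.1 ± 6.29 in TRaGS CD4 and 43.5 ± 27.7 in TRaWT CD4. The ratio of Treg to CD4 was 4.91 in TRaGS mice and 2.93 in TRaWT mice. Tnfrsf18 averaged 328 ± 19.8 in TRaGS Treg, 219.7 ± 19.985 in TRaWT Treg, 77.9 ± 37.7 in TRaGS CD4 and 79.7 ± 44.1 in TRaWT CD4, a ratio of 3.48 over all libraries. Both genes were thus highest in TRaGS Treg, next in TRaWT Treg and lowest in CD4, where the genotypes overlapped.

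Tnfrsf1a ran the other way. It averaged 11.2 ± 5.27 RPM in TRaGS Treg, 23.7 ± 11.1 in TRaWT Treg, 58.1 ± 30.7 in TRaGS CD4 and 50.4 ± 27.6 in TRaWT CD4, and was lower in Treg in 7 of 8 animals, with a ratio of 0.322. Neighbouring groups in this order overlapped. The 2 TNF receptors therefore had opposite levels: Tnfrsf1b was higher and Tnfrsf1a mostly lower in Treg. Traf1 was 1.92 times as high in Treg, and Cd27 1.37 times, while the ratio was 1.39 for Tnfrsf25, 1.22 for Traf2 and 0.961 for Fas. For Traf2 and Fas every pair of groups overlapped; for Tnfrsf25 all did but TRaWT Treg, at 59.8 to 76.6 RPM, and TRaWT CD4, at 18.6 to 58.6. Tnfrsf25 was higher in Treg in 7 of 8 animals, Traf2 in 5 and Fas in 4.

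**Figure D4:**
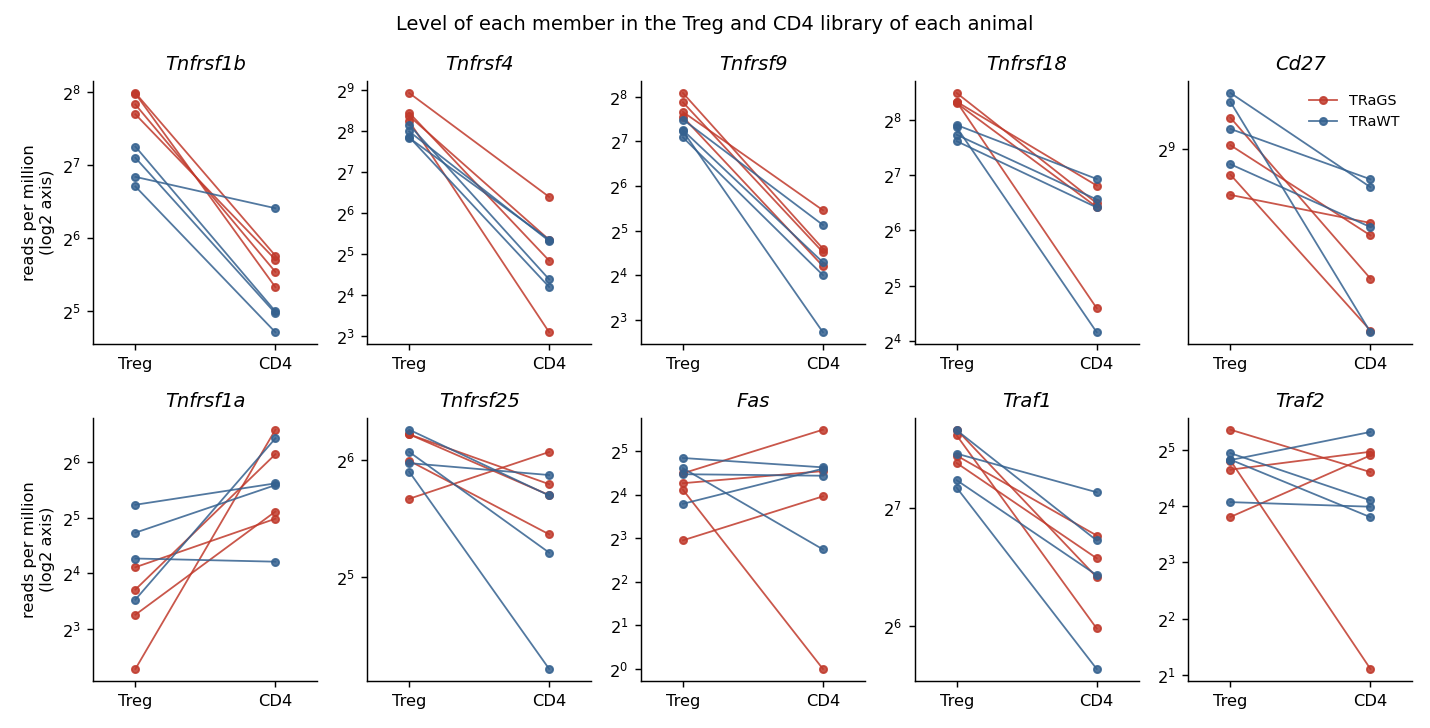
RPM outside Gm42418 (reads scaled to an equal library total, log2 axis) for each gene in the Treg and the CD4 library of each of 8 animals, joined by a line, with TRaGS and TRaWT animals in separate colours. Lines fall towards CD4 in all 8 animals for Tnfrsf1b, Tnfrsf4, Tnfrsf9, Tnfrsf18, Cd27 and Traf1, and run the other way in 7 of 8 animals for Tnfrsf1a.

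Over the 16 libraries the levels of the 4 receptors moved together, with Pearson correlations of log2(RPM + 1) between 0.79 and 0.92 for the pairs among them. Against Tnfrsf1a their correlations were negative, between -0.76 and -0.68. The points are 8 libraries of each subset, so genes that differ between Treg and CD4 share that gap. Among 7288 genes, the pattern most like that of Tnfrsf4 was Foxp3 (r = 0.96), followed by Metap2 and Ccr6. For Tnfrsf1b it was Ikzf4, which encodes a partner of Foxp3 (r = 0.93), followed by Nrp1 and Ikzf2. Tnfrsf9 was most like Cish, a target gene of STAT5 (r = 0.96), then Ikzf2 and Tiam1, and Tnfrsf18 most like Cd81 (r = 0.94), then Gtpbp2 and Tapbpl. All are over the 16 libraries and are descriptions.

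The ligands of the family were examined as a list of 17 genes, of which 10 were tested in Treg and 9 in CD4. In Treg 1 was called, and it was lower in TRaGS: Lta, which encodes lymphotoxin alpha, a soluble ligand of both TNF receptors. It had 66.4, 99.0, 62.5 and 76.1 normalised counts in TRaGS Treg, against 125, 209, 176 and 191 in TRaWT Treg. All TRaGS libraries lay below all TRaWT libraries. The log2 fold change was -1.19 ± 0.29 (SE), with an adjusted p of 0.0262 by limma. This call was kept in 12 of 21 alternatives; leaving out each library in turn gave limma adjusted p of 0.0177 to 0.127, and it passed only without TRaGS replicate 2 or TRaWT replicate 1. Calls with lower values in TRaGS made up 0.226% of all genes tested in Treg. Among the 10 ligands tested in Treg, 2 were higher and 1 lower in TRaGS without overlap, beside 2.84% and 2.23% of all genes tested.

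Also among the ligands, and named after their values were seen, Tnfsf14 and Tnfsf15 were higher in all TRaGS than in all TRaWT Treg libraries but low. Tnfsf14 encodes LIGHT, and had 11.6, 22.4, 16.7 and 40.2 in TRaGS Treg, against 4.93, 11.1, 2.33 and 9.39 in TRaWT Treg (limma adjusted p = 0.572). Tnfsf15 encodes TL1A, the ligand of Tnfrsf25, and had 6.64, 32.5, 2.23 and 3.26 in TRaGS Treg, against 0, 0, 1.17 and 0 in TRaWT Treg (limma adjusted p = 0.521). The ligands of OX40, GITR and CD27 (Tnfsf4, Tnfsf18 and Cd70) were at or near 0 in both subsets and were not tested. In CD4 none of 9 ligands was called by limma, edgeR or DESeq2, and 1 had an unadjusted p under 0.05 with each. Tnfsf8, the ligand of CD30, was at 129 to 455 in TRaGS CD4 and 61.8 to 158 in TRaWT CD4, and Ltb, the lymphotoxin beta chain, at 399.9 to 836 in TRaGS CD4 and 549.7 to 959.8 in TRaWT CD4.

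Of 18 other receptors of the family, 7 were tested in Treg and 6 in CD4. None was called in either subset by limma, edgeR or DESeq2; by limma 1 in Treg and 2 in CD4 had an unadjusted p under 0.05. Relt, a receptor of lymphoid tissue, was at 26.7 to 30.4 in TRaGS Treg and 41.1 to 93.3 in TRaWT Treg, without overlap (limma adjusted p = 0.393). Groups without overlap and with TRaGS lower were 1 of these 7, beside 2.23% of all genes tested in Treg. In CD4 they were 1 of 6, beside 3.16% of all genes in either direction. Tnfrsf10b, a death receptor for TRAIL, was at 3.26 to 12.3 in TRaGS Treg and 10.5 to 15.6 in TRaWT Treg. In CD4 it was at 1.15 to 96.8 in TRaGS mice, while 3 of the TRaWT libraries were at 0 and the other at 2.51. Tnfrsf26, a further receptor of the family in mice, was at 92.3 to 209 in TRaGS CD4 and 14.2 to 154 in TRaWT CD4. Tnfrsf13c, the BAFF receptor of B cells, named after its values were seen, was at 1.41 to 5.87 in TRaGS CD4 and 7.32 to 22.6 in TRaWT CD4, without overlap (limma adjusted p = 0.947).

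Downstream of the receptors, no adaptor or NF-kB gene passed the test as reported, and under the alternatives Ripk1 alone was called, in Treg in 1 of 21. All 15 adaptors and genes of death signalling were tested in both subsets, with 0 called by limma, edgeR or DESeq2; by limma 2 in Treg and 1 in CD4 had an unadjusted p under 0.05. In Treg 11 of these 15 had negative log2 fold changes and 4 positive ones, with a median of -0.19. In Treg 2 of the 15 were lower in TRaGS without overlap, beside 2.23% of all genes tested. In CD4 1 was, beside 3.16% of all genes in either direction. Ripk1, the kinase at the TNFR1 complex, had 154, 107, 181 and 190.3 in TRaGS Treg, against 71.5, 64.4, 74.6 and 116 in TRaWT Treg. A single TRaWT library, replicate 4, overlapped with the TRaGS range, and the log2 fold change was 0.95 ± 0.30 (SE; limma adjusted p = 0.167). With array weights, which let limma give each library its own weight, it was called, at a log2 fold change of 1.04 and an adjusted p of 0.0462, and its adjusted p over the 21 alternatives ran to 0.755. Casp8, the caspase that death receptors activate, was at 605 to 826 in TRaGS Treg and 833 to 927 in TRaWT Treg, with a log2 fold change of -0.35 ± 0.15 (SE; limma adjusted p = 0.449). Traf3ip3, named after its values were seen, also did not overlap, at 523 to 608 in TRaGS Treg and 617 to 786 in TRaWT Treg (limma adjusted p = 0.651). In CD4, Fadd, which links death domains to Casp8, was at 0.978 to 31.8 in TRaGS mice and 35.1 to 104 in TRaWT mice. Traf3, an inhibitor of non-canonical NF-kB signalling, was at 22.5 to 174 in TRaGS CD4 and 135 to 254 in TRaWT CD4. TRaGS replicate 1 alone set the low end of Traf3. Its log2 fold change was -0.846 with all libraries and -0.155 without that replicate.

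All 28 genes of the NF-kB list (kinases, subunits and feedback genes) were tested in both subsets, and none was called by limma, edgeR or DESeq2. By limma 1 in Treg and 2 in CD4 had an unadjusted p under 0.05. In CD4 1 was higher and 2 were lower in TRaGS without overlap, beside 3.16% of all genes in either direction. In Treg 14 had positive and 14 negative log2 fold changes, between -0.55 and 0.67, with a median of -0.0031. Ikbkb, the kinase that marks NF-kB inhibitors for destruction, was at 549.8 to 689 in TRaGS Treg and 642 to 850.2 in TRaWT Treg. Rnf31, a subunit of the linear ubiquitin ligase, was at 107 to 169.9 in TRaGS Treg and 75.1 to 115 in TRaWT Treg. In CD4, Sharpin, a further subunit of that ligase, was at 24.7 to 136 in TRaGS mice and 173 to 224 in TRaWT mice, and Tab3, an adaptor of the kinase TAK1, at 2.12 to 33.8 in TRaGS mice and 42.7 to 50.1 in TRaWT mice; neither overlapped between the genotypes, and both had an adjusted p of 0.947 by limma. Tnip2, which binds the NF-kB inhibitor A20 and was named after its values were seen, differed the other way without overlap. It was at 18.3 to 187 in TRaGS CD4 and 4.18 to 15.2 in TRaWT CD4, with a log2 fold change of 2.21 and the same adjusted p. TRaGS replicate 1 alone was at 187, and the other TRaGS libraries were at 18.3 to 33.8.

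**Figure D5:**
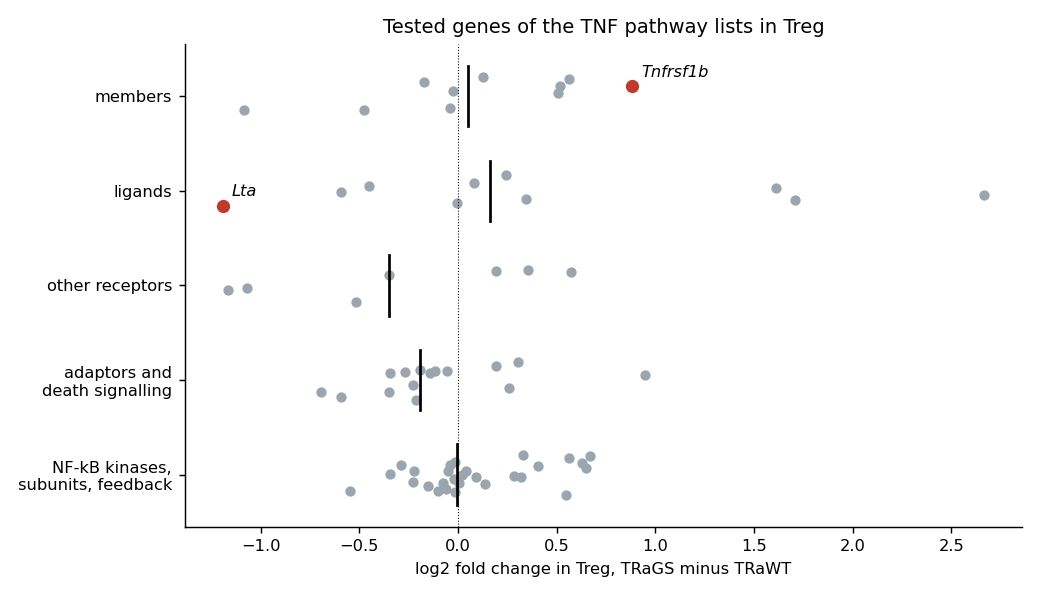
Log2 fold change in Treg, TRaGS minus TRaWT, of the tested genes of each list (points; red points passed the test; black lines are list medians). Tnfrsf1b among the members and Lta among the ligands passed, on opposite sides of 0, and the NF-kB genes centre on 0.

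Some of these genes overlap others on the opposite strand, and whether counting used the strand is not given in the sources used here. Cd27 overlaps Vamp1, which had a mean of 165 normalised counts in Treg and 84.4 in CD4, so reads of this pair may be divided between them. Tnfrsf9 overlaps Camta1, at 21.8 in Treg and 15.5 in CD4. Tnfrsf18 and Traf2 overlap the low or silent Gm16008 and Gm13433.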

How the data were processed

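Per the labels' protocols, RNA of sorted splenic T cells was purified on columns and made into 3' tag libraries, and the submitters' processing notes name the build GRCm38. For the aligner and the counting program, the sources used here give no name. The authors deposited a table per subset, each normalised by itself, in a signal unit: counts over a single factor for each library. In each of the 16 libraries 100% of values were whole multiples of a smallest step (tolerance 0.001), and dividing by it recovered whole reads, which may include PCR copies.

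Genes with a mean of at least 5 over a table's 8 libraries were tested on log2(value + 1), TRaGS minus TRaWT, with limma 3.58.1 in R 4.3.3 (variance trend, Benjamini-Hochberg adjusted p under 0.05); this scale understates changes of low genes. Prior degrees of freedom were 36.8 in Treg and infinite in CD4. The difference between subsets was fitted on Treg minus CD4 log2 values per mouse. The scripts were tested on simulated data. Run on the recovered reads, edgeR 4.0.16 called 90 genes in Treg and 3 in CD4, and DESeq2 1.42.0 called 138 in Treg and 10 in CD4. Symbols matched 47224 identifiers; coordinates are from GENCODE M21, and start-site windows from RefSeq.

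Each library was counted as 1 sample from 1 mouse. Replicate numbers do not pair TRaGS with TRaWT mice: deviations of same-numbered libraries correlated between -0.021 and 0.0456. Both libraries of a mouse carry its number in their titles. This number is higher in TRaGS replicates 2, 3 and 4 than in every TRaWT mouse, while that of TRaGS replicate 1 falls among the TRaWT numbers. Genotype thus partly follows the order of animal numbers, whose meaning the labels do not give. The part of that order in the values was not tested. All 10 members are named, with called pathway genes or the 2 of smallest p per list and subset, called markers, and the 3 genes most like each of 4 receptors among genes with a mean of at least 20 in both tables. Members and lists were chosen with earlier results of these data known. Alternatives were other pseudocounts, filters, scalings and tools, array weights, a replicate block, leaving out libraries, and TRaGS replicates 1 and 2 alone.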

Additional observations from a re-analysis of the deposited data

Results flagged for a closer look

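In 10 of 102 groups of 4 libraries, 1 library stood apart from the other 3 by the gap to its nearest neighbour; chance gives about 1 in 20. Among the members these were both in CD4 of TRaWT replicate 1: Tnfrsf1b at 184.1 normalised counts (others 53.7 to 68.5) and Traf2 at 86.38 (others 30.1 to 35.4). Among the pathway genes they were Tnfrsf10b at 2.506 in CD4 of TRaWT replicate 2 (others at 0), Casp8 at 927.3 in Treg of TRaWT replicate 4 (others 833 to 841), and Sharpin at 24.75 in CD4 of TRaGS replicate 2 (others 119 to 136) and at 223.9 in CD4 of TRaWT replicate 2 (others 173 to 176). Among Treg markers they were Il1rl1 at 362.1 in TRaGS replicate 4 (others 642 to 677), Ikzf2 at 4390 in TRaWT replicate 1 (others 3440 to 3594), Nrp1 at 704.3 in TRaWT replicate 4 (others 872 to 904) and Gata3 at 673 in TRaWT replicate 2 (others 947 to 973).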

How the results depend on the processing

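Tnfrsf1b kept its call in Treg in 20 of 21 alternatives, with log2 fold changes of 0.80 to 0.99. With TRaGS replicates 1 and 2 alone, log2 fold changes in Treg were 0.994 for Tnfrsf1b, 0.329 for Tnfrsf4, 0.591 for Tnfrsf9 and 0.61 for Tnfrsf18. The members called in Treg, 1 in the fit as reported, were 2 after quantile normalisation and 2 with DESeq2 (Tnfrsf18 added) and 0 without a variance trend. Ripk1 was called in Treg with array weights alone (log2 fold change 1.04). All genes called in Treg (106) were 62 without a filter, 0 without a variance trend, 34 with TRaGS replicates 1 and 2 alone, and 54 to 108 without each library in turn, 54 without TRaGS replicate 3 and 56 without TRaGS replicate 4. In CD4 (6) they were 1 without a filter, 3 with scaling outside Gm42418, 3 with edgeR, 10 with DESeq2, 0 without a variance trend and 1 to 7 without each library. For the difference between subsets (0) they were 15 with edgeR, 37 with DESeq2, 4 in 1 model of all libraries and 0 to 1 without each animal. With the replicate block 112 genes were called in Treg and 4 in CD4, and the members' calls did not change; the numbers pair no mice across genotypes. Upper-quartile scaling and scaling outside Gm42418 moved the median of all CD4 fold changes to -0.115 and -0.129. The cause of these changes was not tested.

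Signs also turned for members in a subset in which they were never called. In Treg, Traf2 (-0.03) was 0.0253 with edgeR, 0.0189 with DESeq2, 0.0339 with array weights and -0.242 to 0.242 without each library, and Tnfrsf25 (-0.04) was -0.117 to 0.0839 without each library. In CD4, without each library, Tnfrsf1a was -0.0588 to 0.695, Tnfrsf4 -0.214 to 0.727, Tnfrsf18 -0.417 to 0.681, Cd27 -0.185 to 0.0684, Fas -1.02 to 0.57, Traf1 -0.191 to 0.3 and Traf2 -0.652 to 0.636. With TRaGS replicates 1 and 2 alone, Tnfrsf4 was -0.315, Tnfrsf18 -0.204 and Cd27 0.046. Fas was 0.185 with edgeR and 0.197 with DESeq2. Traf1 was -0.033 with upper-quartile scaling, -0.0538 after quantile normalisation, -0.0482 with scaling outside Gm42418, -0.0156 with edgeR and -0.00745 with DESeq2. Traf2 was 0.15 with edgeR, 0.152 with DESeq2 and 0.0713 with array weights.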
